A study of Rattus norvegicus with 12 samples.

Results

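The TGF-beta and BMP pathway genes on the array were 47 genes, taken up by name: those whose symbol begins with Tgfb, Tgfbr, Bmp, Smad, Gdf or Ltbp directly before a digit, and Inhba, Inhbb, Inha, Fst, Nog, Grem1, Bambi, Acvr1, Acvr2a, Acvrl1, Bmpr1a and Bmpr2. They were 54 of the 30367 probes and 47 of the 26612 gene names, 40 genes having 1 probe and 7 having 2. The rule uses names and no measured value, but it was chosen with earlier results of these data known. By its name the choice includes Tgfb1i1, which encodes the LIM-domain adaptor Hic-5 and not a ligand, and Bmp1, which encodes a procollagen proteinase and not a ligand of the family. No probe carries the name Tgfbr2 or Ltbp3, and these genes were not analysed here. Expression was measured in cells of the cervix of 12 adult female Sprague Dawley rats, on 1-colour arrays with 1 rat each. There were 4 groups of 3 rats: whole cervix from nonpregnant rats in proestrus (NP) and from rats on gestational day 21 (D21), shortly before birth, and Mφ-depleted cervix from other NP and D21 rats. All 4 groups were perfused with saline and all cervices were dispersed with collagenase. The suspensions of the depleted groups were then also incubated with the Mφ antibody ED1 and held to a magnet with beads, a step that the whole groups did not go through, so that the removal of cells and the handling cannot be told apart.

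Ligands of the TGF-beta family are secreted dimers that bind complexes of type I and type II serine/threonine kinase receptors. TGF-betas and activins mostly signal through Smad2 and Smad3 and BMPs through Smad1, Smad5 and Smad9, each of which joins with Smad4, while Smad6 and Smad7 feed back to inhibit the receptors. TGF-beta is stored in the matrix with latent TGF-beta binding proteins (Ltbps), noggin, gremlin and follistatin hold ligands in solution, and in connective tissue the pathway is known above all for driving collagen synthesis and myofibroblast genes. The cervix is mostly such tissue, rich in collagen with smooth muscle and an epithelium, and it softens before birth.

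Levels are log2 intensities less the log2 of the array's 75th percentile, so that 0 is the 75th percentile of an array and a level of 1 probe cannot be set against that of another. A difference is a difference of mean log2 levels, given with its SE from limma over the 12 arrays. A gene was tested where the scanner software rated it well above background on every one of the 3 arrays in 1 or more of the groups compared. It was called at the threshold of the study's methods, a change of 2-fold or more and a p under 0.01 before adjustment, and Benjamini-Hochberg adjusted p-values over all genes tested are given beside the call. Of the 47 genes, 22 were well above background on all 12 arrays, 5 on none, and 35 could be tested in at least 1 comparison. The share of all probes that was well above background ran from 44.9% to 61.8% over the arrays, and the number of arrays limits the precision. The libraries lay on 4 slides scanned on 3 days, and no slide held whole and Mφ-depleted D21 cervix together. Each array of a group was an individual rat.

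The labels were checked against marker genes. Whole cervix was called higher than depleted cervix for 13 of 15 Mφ markers in D21 rats and for 11 of 13 that could be tested in NP rats, with a median difference of 5.04 in each. Csf1r, the receptor of the main Mφ growth factor, lay between 1.07 and 2.01 on the whole arrays and between -6.01 and -4.41 on the depleted arrays, while Cd68, whose product ED1 binds, overlapped between them. Other cells moved with depletion too. The mean of 10 fibroblast markers ranged from 3.90 to 4.33 in whole cervix, from 2.14 to 2.87 in depleted D21 cervix and from -1.01 to 0.23 in depleted NP cervix. Smooth muscle markers ranged from 3.19 to 4.36, from 0.77 to 1.60 and from -0.37 to 0.21. Epithelial markers were higher in depleted (4.73 to 5.40) than in whole cervix (3.09 to 4.49), and immediate-early genes, which mark handling of cells, likewise (1.40 to 2.74 against -0.84 to -0.14). The part of these cells in the results below was not tested. In bulk samples fewer cells of a type and less RNA per cell cannot be told apart.

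**Figure D1:**
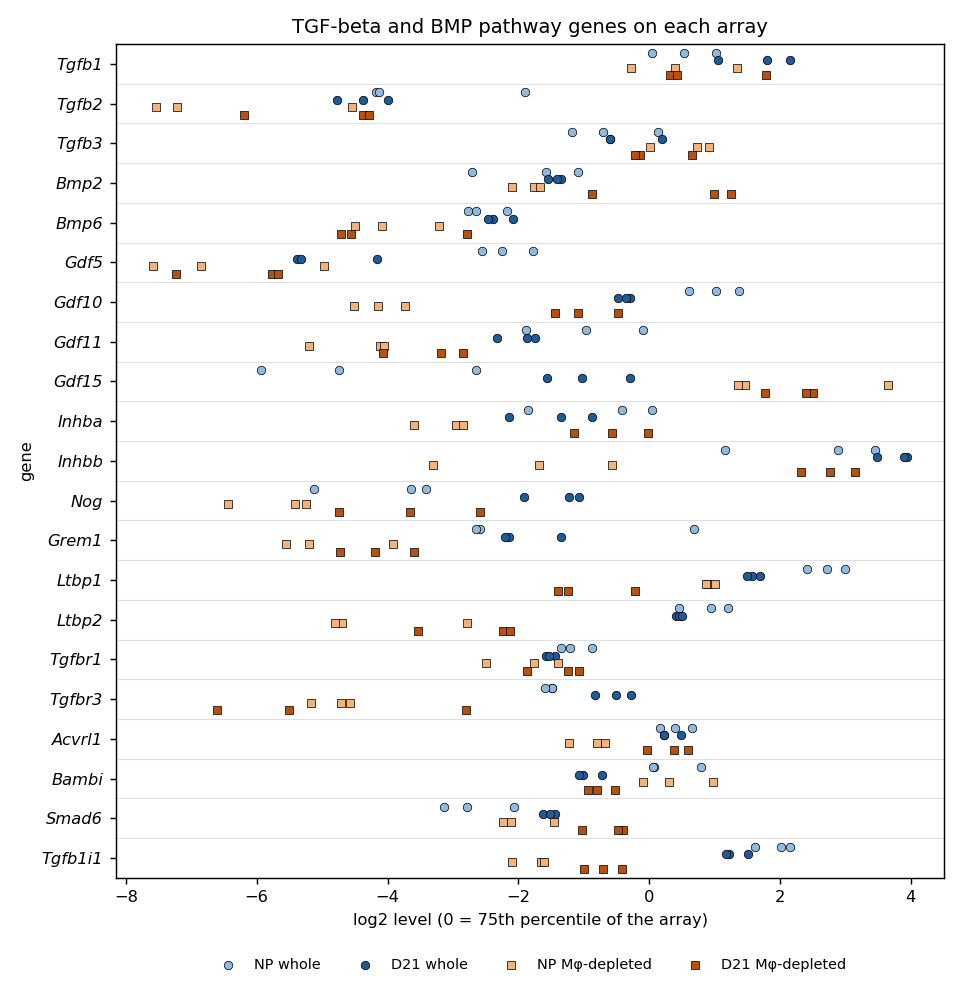
The log2 level of 21 TGF-beta and BMP pathway genes on each of the 12 arrays (x axis, 0 is the 75th percentile of the array; 1 point per rat; circles, whole cervix; squares, Mφ-depleted cervix). Inhbb in depleted NP cervix (-3.31 to -0.56) lies below all other arrays, and Gdf15 lies higher in depleted (1.36 to 3.65) than in whole cervix (-5.94 to -0.29).

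The TGF-beta ligands Tgfb1 and Tgfb3 and the receptor Tgfbr1 were called in no comparison, and Tgfb2 was too dim to test. With scan day as a block Tgfb1 passed the call in whole cervix (D21 minus NP 1.14, adjusted p = 0.0710). With slide as a block its difference there was 0.65 (limma adjusted p = 0.597) and not called. Tgfb1, the ligand most tied to fibrosis and immune restraint, lay at 0.53, 0.05 and 1.02 in NP whole cervix (rats 8, 9 and 10) and at 1.05, 2.16 and 1.80 in D21 whole cervix (rats 5, 6 and 7). In depleted cervix it lay at 0.39, -0.28 and 1.34 in NP rats 5, 6 and 7 and at 0.32, 0.42 and 1.79 in D21 rats 1, 2 and 4. The whole groups did not overlap, D21 being above NP by a narrow margin (NP rat 10 at 1.02 and D21 rat 5 at 1.05), and the depleted groups did. The D21 minus NP difference of Tgfb1 was 1.14 ± 0.50 in whole cervix (limma adjusted p = 0.206) and 0.36 ± 0.50 in depleted cervix (adjusted p = 0.711). Tgfb3, a ligand of mesenchymal tissues, lay at -0.70, 0.13 and -1.18 in NP and at -0.60, 0.20 and -0.60 in D21 whole cervix. Its depleted levels were 0.92, 0.73 and 0.02 in NP and -0.14, -0.22 and 0.65 in D21 rats. In NP rats whole cervix was below depleted cervix by 1.14 ± 0.40 on the log2 scale (adjusted p = 0.0477, not called), with rat 9 overlapping the depleted rats. Tgfb2 was well above background on 4 of 12 arrays, among them 2 of NP whole cervix (-4.17, -1.90 and -4.13), and was not tested. Its other levels were -3.99, -4.78 and -4.37 in D21 whole cervix, -7.54, -7.22 and -4.54 in NP depleted cervix and -4.38, -6.19 and -4.28 in D21 depleted cervix.

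Tgfbr1, the type I receptor of TGF-beta, lay within a narrow span, at -0.87, -1.34 and -1.21 in NP whole, -1.57, -1.44 and -1.53 in D21 whole, -2.49, -1.76 and -1.39 in NP depleted and -1.07, -1.87 and -1.24 in D21 depleted cervix. Its differences between groups ran from -0.37 (D21 minus NP, whole cervix) to 0.74 (whole minus depleted, NP rats), and none was called. The BMP receptors Bmpr1a and Bmpr2 and the activin receptor Acvr1 were called nowhere either. Bmpr2 was lower in whole than in depleted NP cervix by less than 2-fold (difference -0.85 ± 0.22, adjusted p = 0.0113). Acvr1 lay at -2.68 and -2.75 in D21 depleted rats 1 and 2 against -0.89 to -0.15 on the other 10 arrays, rat 4 of that group included.

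In whole cervix, late pregnancy went with more noggin, Gdf15, Bmp4 and Smad6 and with less Gdf5, Gdf10, Bambi and Ltbp1. Of 35 genes tested 4 were called higher in D21 than in NP rats (11.4%; 5.38% of all 14063 genes tested) and 4 lower (11.4%; 3.09% of all). With adjusted p-values at 0.05, 2 were higher (3.93% of all) and 3 lower (1.93%). The groups did not overlap for 11 genes that were higher in D21 rats (20.0% of all genes tested) and 6 that were lower (24.2%). The median difference was 0.12 for the 35 genes and -0.08 for all genes tested.

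Gdf15, a stress-induced cytokine distant from the rest of the family, lay at -4.74, -2.64 and -5.94 in NP rats 8, 9 and 10 and at -0.29, -1.56 and -1.03 in D21 rats 5, 6 and 7. Every D21 rat was above every NP rat, and the difference was 3.48 ± 0.79 (adjusted p = 0.0296). Only 1 NP array had it well above background, so that the size of this difference rests in part on values below background. Nog, which encodes the BMP inhibitor noggin, lay at -5.13, -3.41 and -3.64 in NP and at -1.07, -1.92 and -1.22 in D21 rats, and was higher in D21 rats by 2.66 ± 0.59 (adjusted p = 0.0266). It was well above background in 2 of 3 NP rats. Gdf5, a ligand best known from joint formation, was well above background on the 3 NP arrays alone (-2.25, -1.78 and -2.56, against -4.16, -5.38 and -5.32 in D21 rats). It was therefore at least 4.14-fold lower in D21 than in NP rats (adjusted p = 0.0324), a bound that sets the NP mean against the dimmest signal so rated on each D21 array or, where higher, the probe's own. Gdf10, also known as BMP3b and made by stromal cells, fell from 1.38, 0.61 and 1.02 to -0.29, -0.48 and -0.36 (difference -1.38 ± 0.31, adjusted p = 0.0276). Bambi, a pseudoreceptor that lacks the kinase and blocks signalling, fell from 0.08, 0.06 and 0.80 to -1.01, -0.72 and -1.07 (-1.24 ± 0.31, adjusted p = 0.0391). The groups were apart for each of these 5 genes.

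The other 3 called genes did not reach an adjusted p of 0.05. Bmp4, a BMP ligand named after its values were seen, was higher in D21 rats by 1.87 ± 0.58 (adjusted p = 0.0836), and Smad6, the inhibitory Smad of BMP signalling, by 1.14 ± 0.32 (adjusted p = 0.0597). Ltbp1, a binding protein of latent TGF-beta, differed by -1.12 ± 0.30 (adjusted p = 0.0552). NP rat 8 had the lowest Bmp4 level (-4.23, against -2.22 and -1.76 in rats 9 and 10), and without it the difference was 1.12. The call of Bmp4 was lost without any 1 of 6 rats, and those of Smad6 and Ltbp1 without any 1 of 4, NP rats 8 and 10 and D21 rat 7 among them for both. The call of Bambi was lost without NP rat 10. Of the higher calls 2 were left without D21 rat 6, D21 rat 7 or NP rat 8, and of the lower calls 2 without NP rat 10. With slide as a block 1 higher call was left, against 4, that of Gdf15, and the lower calls stayed at 4. With normexp background correction the calls of Gdf15 (1.62), Nog (1.20), Smad6 (0.75), Gdf5 (-0.62) and Bambi (-0.78) were lost, and those of Bmp4, Gdf10 and Ltbp1 were left. Within the only slide that held both groups, the 3 D21 rats and NP rat 10, Gdf15 differed by 4.98, Nog by 2.24 and Bmp4 by 0.90. All 8 called genes kept their sign there, which was fixed beforehand, since their groups did not overlap. Beside these genes 6 of 10 epithelial markers were called higher in D21 whole cervix (median 1.32) and 3 of 9 smooth muscle markers lower (median -0.84), and their part in the calls was not tested.

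In depleted cervix, the difference between D21 and NP rats was led by activin subunits and Gdf10. Of 31 genes tested 8 were called higher in D21 rats (25.8%; 5.45% of all 13413 genes tested) and 2 lower (6.45%; 2.07% of all), and with adjusted p-values 7 were higher (3.62% of all) and 1 lower (0.977%). The groups did not overlap for 9 genes higher (9.49% of all) and 5 lower (7.53%). The median difference was 0.49 over the 31 genes and 0.02 over all genes tested. These are different rats from the whole groups and share no array with them.

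Inhbb, the beta B subunit of activins and inhibins, lay at -3.31, -1.69 and -0.56 in NP rats 5, 6 and 7 and at 2.33, 3.15 and 2.77 in D21 rats 1, 2 and 4, a difference of 4.60 ± 0.67 (adjusted p = 0.00299). A dimmer second probe of Inhbb differed by 2.08. Inhba, the beta A subunit, lay at -3.60, -2.95 and -2.85 in NP and at -1.15, -0.02 and -0.57 in D21 rats (2.56 ± 0.50, adjusted p = 0.0145). Inhba and Gdf10 were well above background in 2 of the 3 NP rats. Gdf10 lay at -4.15, -4.52 and -3.74 in NP and at -0.47, -1.44 and -1.08 in D21 rats (3.14 ± 0.31, adjusted p = 0.000319). Gdf10 was thus higher in D21 rats in depleted cervix and lower in D21 rats in whole cervix. Bmp2, a ligand that drives bone and decidual differentiation, lay at -2.09, -1.76 and -1.67 in NP rats and at 1.25, 0.99 and -0.88 in D21 rats, rat 4 being nearest to the NP rats (2.29 ± 0.53, adjusted p = 0.0318). Smad6 (-2.23, -2.11 and -1.45 against -0.40, -0.47 and -1.03) and Acvrl1, the type I receptor of endothelium (-1.23, -0.80 and -0.67 against 0.38, 0.59 and -0.04), were 2.46-fold and 2.32-fold higher in D21 rats (adjusted p = 0.0414 and 0.0186). The call of Smad6 was lost with scan day or slide as a block (1.15, adjusted p = 0.153 and 0.20). Tgfb1i1 lay at -1.66, -2.10 and -1.60 in NP and at -1.0, -0.41 and -0.71 in D21 rats (1.08 ± 0.25, adjusted p = 0.0318). Without D21 rat 2 or NP rat 6 the difference of Tgfb1i1 was 0.93 or 0.92, under the 2-fold limit. With normexp the calls of Acvrl1, Tgfb1i1 (0.88), Nog (1.17) and Bambi (-0.67) were lost.

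Ltbp1 was the 1 gene lower in D21 rats after adjustment, at 0.90, 1.01 and 0.87 in NP and at -1.24, -1.40 and -0.21 in D21 rats (-1.88 ± 0.30, adjusted p = 0.00485). Bambi was lower by 1.15 ± 0.31 (adjusted p = 0.0580), and its call was lost without D21 rat 1 or NP rat 7. Nog was well above background in no NP rat and in all 3 D21 rats, which puts it at least 1.70-fold higher. Its limma adjusted p of 0.0757 belongs to the unbounded difference of 2.04, and its call was lost without D21 rat 2, D21 rat 4 or NP rat 6. Lower calls numbered 1 without D21 rat 1 and 5 without D21 rat 4. The groups overlapped for none of the 10 called genes, which fixed their sign within any slide. All 10 kept it within each slide that held both groups (D21 rat 2 with NP rats 5 and 6, and D21 rat 4 with NP rat 7). Within the latter slide Bmp2 differed by 0.80 and Smad6 by 0.42, against 2.91 and 1.70 within the former. Fibroblast markers moved with these differences (8 of 10 called higher in D21 depleted cervix, median 2.78), as did smooth muscle markers (6 of 8 tested, median 1.47) and immediate-early genes (4 of 8 tested, median 0.90), and their part in these calls was not tested. In whole cervix 1 of 10 fibroblast markers was called higher.

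**Figure D2:**
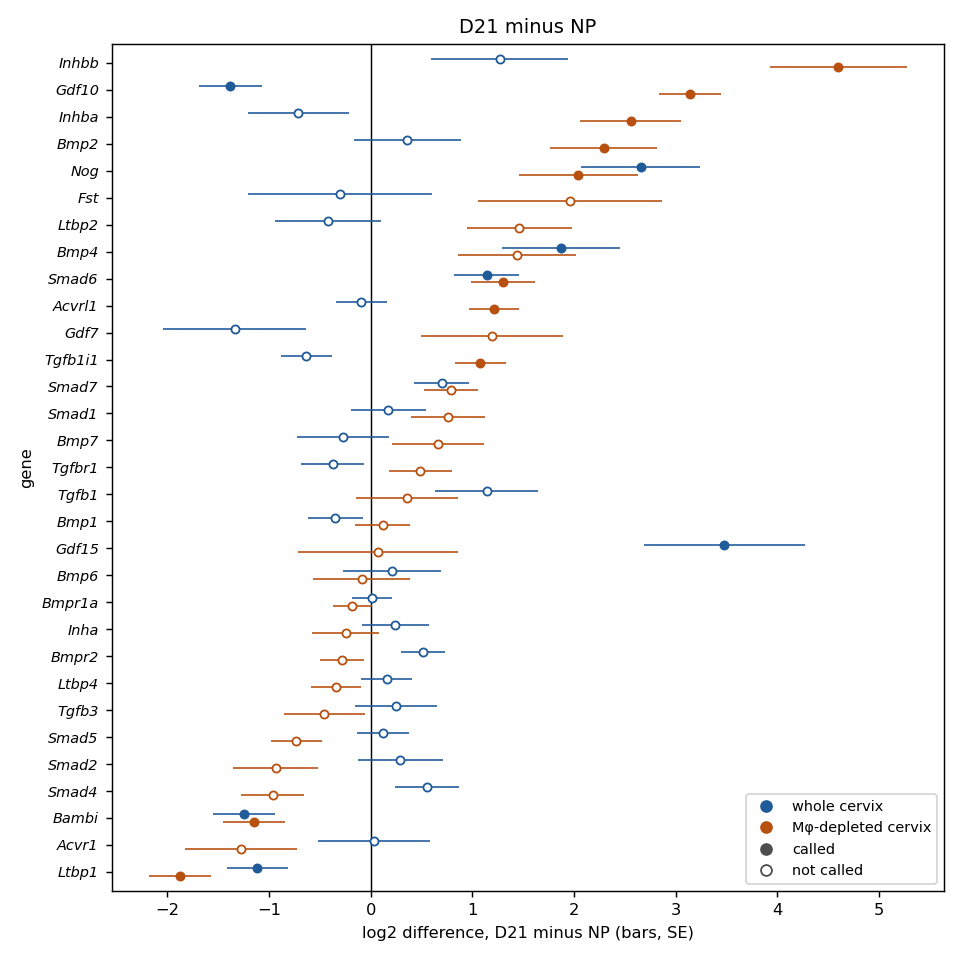
The difference between D21 and NP rats (x axis, log2, D21 minus NP; bars, SE; n = 3 rats a group) for the 31 genes tested in both whole (blue) and Mφ-depleted cervix (orange), with filled points for called genes. Inhbb (4.60), Gdf10 (3.14) and Inhba (2.56) lead in depleted cervix, where Gdf10 is -1.38 in whole cervix.

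Whole and Mφ-depleted cervix were then compared in D21 rats and in NP rats, to ask which transcripts differed between them. In D21 rats, betaglycan, Ltbp1, Ltbp2, noggin and Hic-5 were higher in whole cervix, and Gdf15 and Bmp2 were higher in depleted cervix. Of 34 genes tested 7 were called higher in whole cervix (20.6%; 10.0% of all 14262 genes tested) and 3 lower (8.82%; 7.71% of all). With adjusted p-values 7 were higher (11.9% of all) and 5 lower (10.5%). The groups were apart for 11 genes higher in whole cervix (21.3% of all) and 8 lower (23.1%), and the median difference was -0.03 against -0.06 for all genes.

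Tgfbr3, the coreceptor betaglycan, lay at -0.51, -0.82 and -0.28 in D21 whole cervix and at -5.51, -6.61 and -2.80 in D21 depleted rats 1, 2 and 4, 1 of which had it well above background (4.44 ± 0.71, adjusted p = 0.00247). Ltbp2, which binds elastic microfibrils, lay at 0.41, 0.45 and 0.50 in whole and at -2.23, -3.54 and -2.12 in depleted cervix (3.08 ± 0.52, adjusted p = 0.00325). Its dimmer probe differed by 4.58. Ltbp1 lay at 1.57, 1.70 and 1.50 in whole cervix against the depleted levels given above (2.54 ± 0.30, 5.82-fold, adjusted p = 0.00045). Tgfb1i1 lay at 1.51, 1.22 and 1.18 in whole cervix, above every depleted rat (2.01 ± 0.25, adjusted p = 0.000557). Noggin, at -4.74, -3.65 and -2.58 in depleted cervix, was 4.76-fold higher in whole cervix (adjusted p = 0.0228). Bmp6, a ligand known for control of iron through hepcidin, lay at -2.39, -2.08 and -2.46 in whole and at -4.71, -4.56 and -2.79 in depleted cervix (1.71 ± 0.48, adjusted p = 0.0299). Gdf15 ran the other way, at 2.50, 2.40 and 1.77 in depleted cervix, 9.07-fold above whole cervix (-3.18 ± 0.79, adjusted p = 0.0191). Bmp2, at -1.34, -1.54 and -1.41 in whole cervix, was lower there by 1.88 ± 0.53 on the log2 scale (adjusted p = 0.0292).

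The other called genes, named after their values were seen, were Smad4, the Smad shared by both branches (1.13 ± 0.32, adjusted p = 0.0286), and Smad1, a BMP Smad (-1.24 ± 0.37, adjusted p = 0.0352). The inhibitory Smad7 and the inhibin subunit Inha were lower in whole cervix after adjustment without being called (-0.99, adjusted p = 0.0263, and -1.02, adjusted p = 0.0474). D21 depleted rat 4 stood apart from rats 1 and 2. Its levels of Bmp2 (-0.88), Smad1 (-0.97), Bmp6 (-2.79), Tgfbr3 (-2.80), Smad4 (0.04) and Smad2 (-0.75) were each nearer to the whole arrays than those of rats 1 and 2 were. It was scanned with the whole arrays, and rats 1 and 2 were scanned on other days. Within that scan day, rat 4 against the 3 whole rats, all 10 called genes kept their sign, as they had to with groups that did not overlap. The differences were 2.26 for Tgfbr3, 2.58 for Ltbp2, 1.80 for Ltbp1, 2.01 for Tgfb1i1, -2.73 for Gdf15, -0.56 for Bmp2, 0.48 for Bmp6, -0.38 for Smad1 and 0.54 for Smad4. With scan day as a block 5 genes were called higher (Tgfbr3, Ltbp2, Ltbp1, Tgfb1i1 and Gdf11, which was not called without the block) and 0 lower. With slide as a block the counts were 2 and 0, and of the 10 called genes Tgfb1i1 alone kept its call, the other gene being Gdf11. Tgfbr3 then differed by 3.61 (adjusted p = 0.412), Ltbp2 by 3.16 (adjusted p = 0.384), Ltbp1 by 1.74 (adjusted p = 0.297), Nog by 0.66 and Gdf15 by -0.31. With normexp the calls of Tgfbr3 (1.62), Nog (0.75), Bmp6 (0.37) and Smad4 (0.91) were lost. The calls of Bmp2, Bmp6, Smad1 and Smad4 were each lost without any 1 of 5 D21 rats (all but depleted rat 4), and that of Nog without depleted rat 1 or whole rat 5 or 7. Without D21 depleted rat 4 the counts of higher and lower calls were 9 and 6, without D21 depleted rat 1 they were 4 and 1, without D21 depleted rat 2 lower calls fell to 1, without D21 whole rat 5 the counts were 4 and 1, and without D21 whole rat 7 lower calls fell to 1.

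In NP rats, ligands (Gdf5, Gdf10, Gdf11 and the activin subunits), gremlin, Ltbp1, Ltbp2, betaglycan, Acvrl1 and Hic-5 were higher in whole cervix, while Gdf15 and Inha were higher in depleted cervix. Of 33 genes tested 11 were called higher in whole cervix (33.3%; 13.6% of all 13419 genes tested) and 2 lower (6.06%; 10.8% of all), and with adjusted p-values 13 were higher (17.0% of all) and 5 lower (15.8%). The groups were apart for 14 genes higher in whole cervix (23.0% of all) and 5 lower (24.0%). The median difference was 0.05 against -0.04 for all genes.

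Gdf10 had the greatest of the higher differences, its whole levels (0.61 to 1.38) lying above its depleted levels (-4.52 to -3.74) by 5.14 ± 0.31 (adjusted p = 1.69e-06). Ltbp2 lay at 0.45, 1.20 and 0.95 in whole and at -4.69, -2.79 and -4.80 in depleted cervix (4.96 ± 0.52, adjusted p = 4.31e-05). Inhbb lay at 3.45, 1.16 and 2.89 in whole cervix, above depleted cervix by 4.35 ± 0.67 (adjusted p = 0.000576), or by 3.11 with its second probe. For these 3 genes depleted NP cervix had the lowest mean of the 4 groups by the brightest probe. With the dimmer probe of Ltbp2 depleted D21 cervix was below depleted NP cervix (-0.65). That probe was well above background on 0 of the D21 and 1 of the NP depleted arrays. Tgfb1i1 lay at 2.16, 1.62 and 2.02 in whole cervix (3.72 ± 0.25, 13.2-fold, adjusted p = 2.51e-06). Gdf11, a ligand close to myostatin, lay at -0.97, -0.10 and -1.88 in whole and at -4.12, -4.06 and -5.20 in depleted cervix (3.48 ± 0.48, adjusted p = 0.000269). Grem1, which encodes the BMP inhibitor gremlin, lay at -2.59, 0.69 and -2.65 in whole cervix, rat 9 standing apart, and was well above background in no depleted rat (-5.20, -5.56 and -3.91). By the means of these intensities, rat 9 included, whole cervix thus exceeded depleted cervix in Grem1 by at least 7.28-fold. The limma adjusted p of 0.00700 belongs to the unbounded difference of 3.38. That difference fell to as little as 2.27 on leaving out 1 rat and to 1.70 with normexp, both smaller than the bound. Gdf5 likewise was above background in no depleted rat (-7.58, -6.85 and -4.97) and by these intensities at least 4.67-fold higher in whole cervix. Its limma adjusted p of 0.000455 belongs to the unbounded difference of 4.27, which was 1.59 with normexp. Tgfbr3, at -1.49, -1.48 and -1.59 in whole and -4.71, -4.57 and -5.17 in depleted cervix, differed by 3.29 ± 0.71 (adjusted p = 0.00466). Gdf10, Ltbp2, Gdf11, Tgfbr3 and Inhba were each well above background in 2 of the 3 depleted rats. The call of Tgfbr3 was lost with scan day (2.40, adjusted p = 0.0599) or slide (2.44, adjusted p = 0.104) as a block, that of Grem1 with scan day (3.14, adjusted p = 0.0601) and that of Inhba with slide (2.0, adjusted p = 0.0588). With normexp the calls of Gdf5 (1.59), Grem1 (1.70), Tgfbr3 (1.64), Inhba (1.35) and Inha (-0.78) were lost.

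Gdf15 showed the widest difference of all 33 genes in the opposite direction, its depleted levels of 1.46, 3.65 and 1.36 lying above whole cervix (-6.59 ± 0.79, adjusted p = 0.000107), where 1 of 3 arrays had it well above background. Its depleted levels in NP and D21 rats overlapped, with a D21 minus NP difference of 0.07 ± 0.79. Inhba was higher in whole cervix by 2.39 ± 0.50 (-0.42, -1.85 and 0.04; adjusted p = 0.00382). Ltbp1 was higher there 3.43-fold (2.72, 2.41 and 2.99; adjusted p = 0.00106) and Acvrl1 2.46-fold (0.39, 0.16 and 0.65; adjusted p = 0.00227). Inha, whose product pairs with a beta subunit to form inhibins, was 2.83-fold lower in whole cervix (adjusted p = 0.00497), and was named after its values were seen. Within the slide that held NP whole rats 8 and 9 and depleted rat 7, Gdf10 differed by 4.74, Ltbp2 by 5.63, Inhbb by 2.86 and Gdf15 by -5.05. All 13 called genes kept their sign there, which was fixed beforehand, since their groups did not overlap. The higher calls ran from 11 to 13 on leaving out any 1 rat, and the lower calls rose to 4 without NP whole rat 9. Beside these genes 9 of 10 fibroblast markers (median 4.15) and 9 of 9 smooth muscle markers tested (median 4.59) were called higher in whole NP cervix, and 7 of 10 epithelial markers lower (median -1.60). In D21 rats the counts were 3 of 10 (0.94), 6 of 9 (2.08) and 5 of 10 (-1.50). Their part in these differences was not tested.

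**Figure D3:**
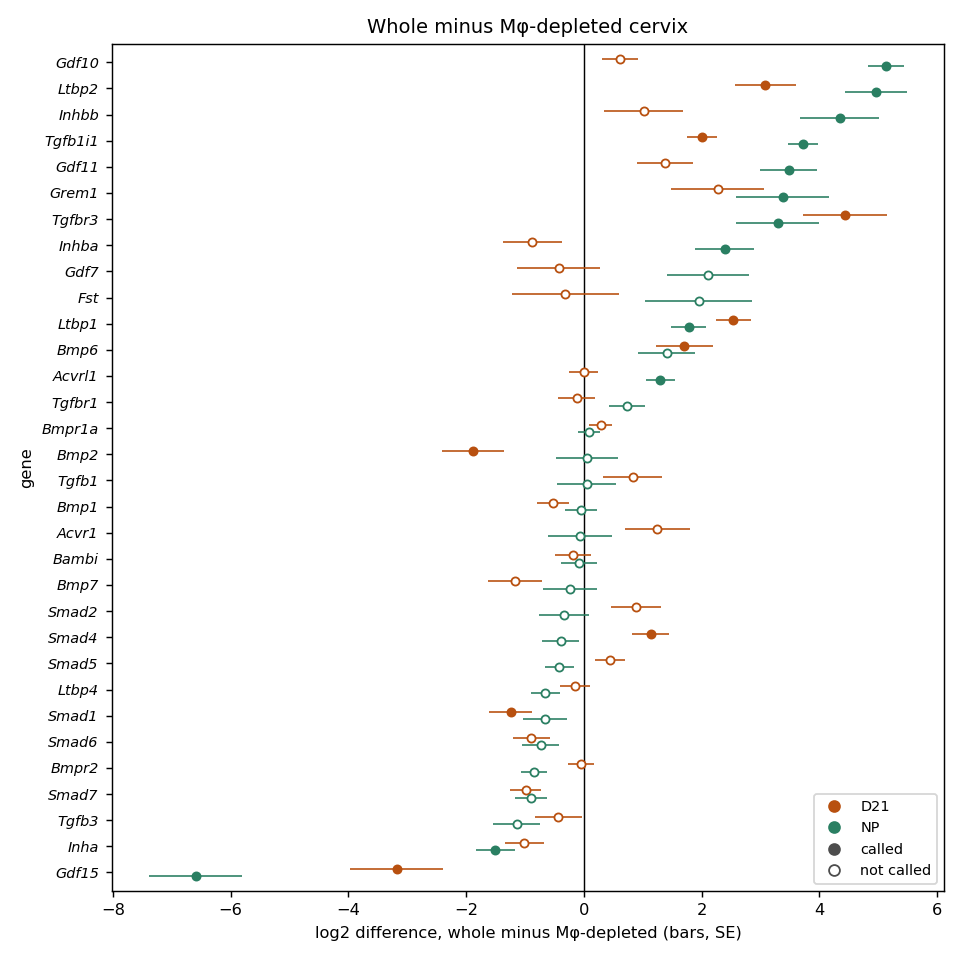
The difference between whole and Mφ-depleted cervix (x axis, log2, whole minus depleted; bars, SE; n = 3 rats a group) in D21 (orange) and NP rats (green) for the 32 genes tested in both, with filled points for called genes. Gdf10 is at 5.14 in NP and 0.62 in D21 rats, and Gdf15 is lowest in both.

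An interaction term asked whether the difference between whole and depleted cervix was itself different in D21 and NP rats. Of 35 genes tested 6 were called lower, that is with a smaller excess of whole over depleted cervix in D21 than in NP rats (17.1%; 5.00% of all 14572 genes tested), and 1 higher (2.86%; 2.44% of all). After adjustment 3 were lower and 0 higher (1.96% and 0.439% of all). Gdf10 led, with whole minus depleted differences of 0.62 ± 0.31 in D21 and 5.14 ± 0.31 in NP rats (interaction -4.52 ± 0.44, adjusted p = 0.00174). For Inhba the differences were -0.88 ± 0.50 and 2.39 ± 0.50 (-3.27 ± 0.71, adjusted p = 0.0404), and for Tgfb1i1 they were 2.01 ± 0.25 and 3.72 ± 0.25 (-1.71 ± 0.35, adjusted p = 0.0330). For both activin beta subunits and Gdf10 every depleted NP rat lay below every other rat. Inhbb (1.02 ± 0.67 and 4.35 ± 0.67; adjusted p = 0.0990), Acvrl1 (-0.004 ± 0.251 and 1.30 ± 0.25; adjusted p = 0.0829) and Gdf5 (adjusted p = 0.114) were called without reaching an adjusted p of 0.05. Their calls were lost without any 1 of 5 rats for Inhbb, 4 for Acvrl1 and 8 for Gdf5. Fibroblast and smooth muscle markers had the same sign (6 of 10 and 6 of 9 called lower, medians -2.80 and -2.69), and their part was not tested. Smad4 was the gene called higher (1.13 ± 0.32 and -0.39 ± 0.31; adjusted p = 0.105), and its call was lost without any 1 of 10 rats. The number of genes called higher was 6 without D21 depleted rat 4, 2 without NP depleted rat 7, 1 without NP whole rat 9 and 0 without any other rat, and the number called lower was 3 without D21 whole rat 7. With slide as a block 3 were called lower, Gdf10, Tgfb1i1 and Inhba, and Smad4 lost its call with either block. Inhbb has a second probe, which differed by 2.59 in D21 and 3.11 in NP rats, so that its differences were much closer to each other. With the mean of both probes the interaction of Inhbb was -1.92 and not called. Gdf15 was not called (3.41 ± 1.12, adjusted p = 0.139), but was called higher without NP depleted rat 7 or NP whole rat 9. It was also called higher with slide as a block (4.9, limma adjusted p = 0.155) and with quantile normalization.

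**Figure D4:**
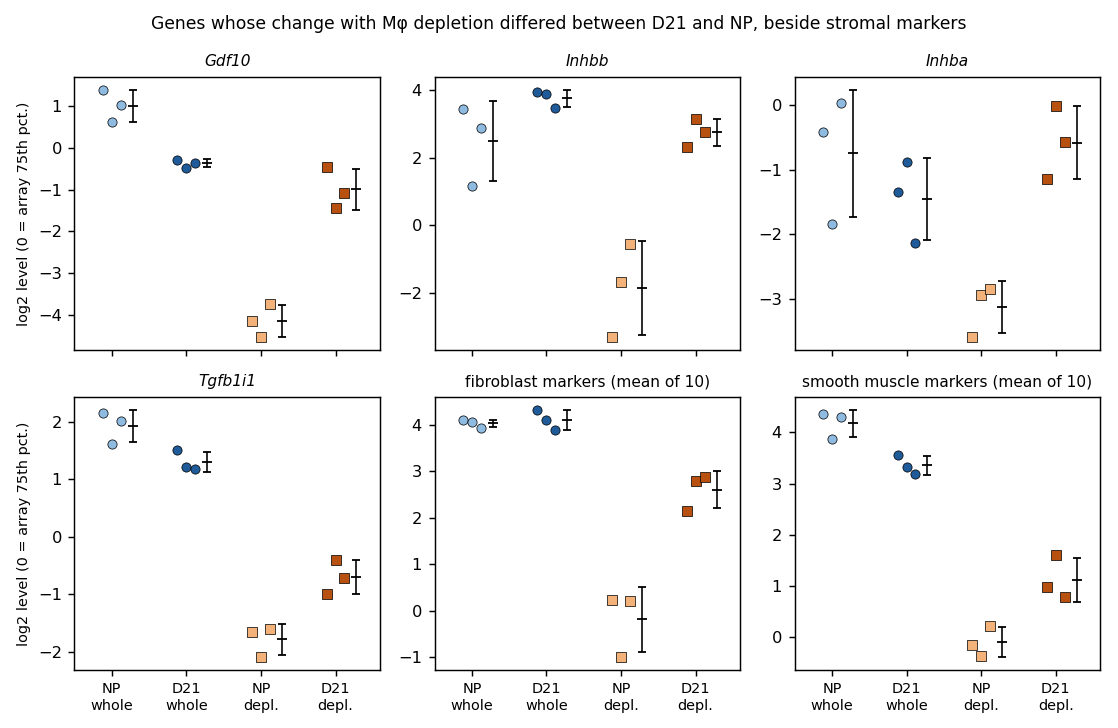
The log2 level (y axis, 0 is the 75th percentile of the array) of 4 genes called in the interaction and of the mean of 10 fibroblast and 10 smooth muscle markers in the 4 groups, with 1 point per rat and the mean with SD (n = 3) beside. For all 6, depleted NP cervix is the lowest group, and depleted D21 cervix lies above it without overlap.

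The promoters of 5 genes with large differences are shown, chosen after their values were seen, because Smad complexes bind DNA at short known sequences. They are not the genes with the largest differences, as Ltbp1 and Ltbp2, not shown, differed by more than noggin in D21 rats. The 5 genes did not share a pattern over the comparisons. RefSeq promoters (GRCr8 build; the 250 bases before the start) matched 37 of the 47 genes by symbol, with 39 promoters, and 10 genes had no entry. In capitals are matches to CAGACA, a Smad box, and to GGCGCC, a GC-rich Smad site, on either strand (GGCGCC reads the same on both). Gdf10 and Inhbb were called higher in whole cervix in NP rats, Tgfbr3 in both NP and D21 rats and noggin in D21 rats, and Gdf15 was called higher in depleted cervix.
Gdf10 (chr16:9243262-9243511, + strand): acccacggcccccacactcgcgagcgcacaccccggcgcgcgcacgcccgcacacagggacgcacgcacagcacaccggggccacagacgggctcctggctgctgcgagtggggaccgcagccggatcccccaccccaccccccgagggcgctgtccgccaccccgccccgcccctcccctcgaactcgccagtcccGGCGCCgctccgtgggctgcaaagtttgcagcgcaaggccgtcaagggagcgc
Inhbb (chr13:33089374-33089623, - strand): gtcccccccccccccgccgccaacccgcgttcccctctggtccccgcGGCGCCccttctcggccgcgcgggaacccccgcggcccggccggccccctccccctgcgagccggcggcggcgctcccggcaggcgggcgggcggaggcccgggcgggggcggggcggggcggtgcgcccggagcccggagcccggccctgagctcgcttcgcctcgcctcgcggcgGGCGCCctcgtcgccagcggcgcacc
Tgfbr3 (chr14:2634044-2634293, + strand): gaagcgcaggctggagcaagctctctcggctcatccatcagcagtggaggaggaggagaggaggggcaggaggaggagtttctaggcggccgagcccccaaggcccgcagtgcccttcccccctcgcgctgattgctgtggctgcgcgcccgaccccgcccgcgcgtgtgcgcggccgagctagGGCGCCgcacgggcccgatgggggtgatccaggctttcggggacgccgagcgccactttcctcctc
Nog (chr10:74627502-74627751, - strand): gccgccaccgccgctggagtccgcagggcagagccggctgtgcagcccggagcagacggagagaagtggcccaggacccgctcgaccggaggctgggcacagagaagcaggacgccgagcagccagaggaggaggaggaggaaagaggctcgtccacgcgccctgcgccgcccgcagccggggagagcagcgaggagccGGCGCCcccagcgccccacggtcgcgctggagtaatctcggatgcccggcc
Gdf15, the second of its 2 entries (chr16:18839015-18839264, + strand): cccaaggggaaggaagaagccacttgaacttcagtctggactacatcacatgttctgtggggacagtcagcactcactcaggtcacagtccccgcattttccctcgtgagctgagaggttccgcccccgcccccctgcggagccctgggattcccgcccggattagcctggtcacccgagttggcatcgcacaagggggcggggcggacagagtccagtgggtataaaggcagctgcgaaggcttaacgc

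GGCGCC began 53 bases before the start of Gdf10, 203 and 26 bases before that of Inhbb, 66 before that of Tgfbr3 and 51 before that of Nog, and it was in neither Gdf15 promoter. It was also absent from the promoters of Ltbp1, Ltbp2, Tgfb1i1, Gdf11 and Inhba, which were called higher in whole NP cervix too. Grem1, also called higher there, had GGCGCC 91 bases before its start. GGCGCC was in 11 of the 39 promoters (28.2%) and in 8.69% of all 33469 promoters of this length. The 39 promoters were also richer in G and C, with a median of 61.6% against 51.2%, which bears on how often such a motif occurs. CAGACA was in 5 of the 39 promoters (12.8%), among them those of Bmp4 and Inha, and in 17.2% of all. A match is a stretch of letters and not a measured site of binding, and the array does not measure Smad binding.

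The wider pathway was counted from lists of genes that are not members. Over all genes tested the shares called higher and lower were 13.6% and 10.8% for whole against depleted NP cervix and 10.0% and 7.71% for D21 cervix. For D21 against NP they were 5.45% and 2.07% in depleted and 5.38% and 3.09% in whole cervix, and for the interaction 2.44% and 5.00%. Of 18 extracellular inhibitors and modulators 15 were tested between whole and depleted NP cervix, and 11 were called higher in whole cervix and 1 lower, with a median of 3.04. Chordin (Chrd), a BMP inhibitor, differed by 4.75 ± 0.58 (adjusted p = 0.000126), and decorin (Dcn), a proteoglycan that binds TGF-beta, by 4.63 ± 0.25 (adjusted p = 1.01e-06). In D21 rats 7 of 15 were called higher and 1 lower (median 0.85). Between D21 and NP rats 5 of 10 were higher in depleted cervix and 0 lower, led by Chrd (4.97 ± 0.58, adjusted p = 0.000919), while in whole cervix 0 of 16 were higher and 3 lower. In the interaction 7 of 16 were called lower (median -1.95). Dcn is also 1 of the fibroblast markers, which, like those of smooth muscle, moved the same way (medians 4.15 and 4.59 in NP rats, -2.80 and -2.69 in the interaction), and their part in this list was not tested.

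All 12 TGF-beta target genes could be tested, and in NP rats whole cervix exceeded depleted cervix for 8 by the call (median 3.79). In D21 rats 4 were called higher and 1 lower in whole cervix (median 0.68). Between D21 and NP rats 9 were called higher in depleted cervix (median 1.80) and 1 higher and 2 lower in whole cervix (median -0.39), and 6 were called lower in the interaction. Col1a2, a chain of type I collagen, differed by 4.23 ± 0.57 between D21 and NP depleted cervix (adjusted p = 0.00208), and Postn, the matrix protein periostin, by 6.24 ± 0.51 between whole and depleted NP cervix (adjusted p = 8.03e-06). Of the 12 genes 6 are also among the fibroblast or smooth muscle markers, so that this list is not separate from the markers.

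Of 9 BMP target genes 7 were tested. In whole against depleted NP cervix 1 was called higher (Id4, 1.84 ± 0.30, adjusted p = 0.000888) and 2 lower (Dlx5 and Msx2), beside 13.6% and 10.8% of all genes tested. In D21 rats 1 was called lower in whole cervix (Dlx5). Between D21 and NP rats 1 was called lower in whole cervix (Msx1, -1.53 ± 0.38, adjusted p = 0.0404) and 0 in depleted cervix. In the interaction 0 were called. Of the genes that store and activate TGF-beta 6 or 7 of 9 on the array were tested. Mmp2, a gelatinase, was 3.57 ± 0.28 higher in whole than in depleted NP cervix (adjusted p = 7.02e-06), where Fbn1, the microfibril protein fibrillin, was also called higher and Itgb6, an epithelial integrin subunit, lower. Mmp2 was 3.27 ± 0.28 higher in D21 than in NP depleted cervix (adjusted p = 0.000221), where Fbn1 and Mmp14 were also called. In D21 rats 2 of 7 were called higher and 1 lower in whole than in depleted cervix. In whole cervix 1 of 7 was called higher in D21 than in NP rats, and 1 of 7 was called lower in the interaction. Of 12 to 13 intracellular regulators tested in each comparison at most 2 were called. Those 2 were Smurf1, a ubiquitin ligase of Smads, and Hipk2, a nuclear kinase, both lower in whole than in depleted NP cervix. There 5 of 12 regulators were lower with limma adjusted p-values at 0.05 (15.8% of all genes tested), with a median of -0.58. Of the other ligands, receptors and coreceptors 3 or 4 of 12 could be tested, and the endothelial coreceptor Eng was called higher in whole than in depleted cervix in both D21 (1.18 ± 0.28) and NP rats (1.04 ± 0.28). Eng is also 1 of the endothelial markers. Of these, 4 of 10 were called higher in whole D21 cervix and 0 lower (median 0.96). In NP rats 3 of 9 tested were called higher and 1 lower (median 0.63). Their part was not tested.

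Of the remaining members, 12 were tested in no comparison. Acvr2a, Bmp5, Bmp10, Gdf9 and Smad3 were well above background on no array, and Bmp3 and Gdf6 on 1. The receptor Smads Smad2 and Smad5 were called nowhere, nor were Bmp1, Bmp7, Fst, Gdf7 and Ltbp4. Fst, which encodes the activin inhibitor follistatin, lay at 0.64 and 1.36 in D21 depleted rats 1 and 2 and at -2.42 in rat 4, so that its groups overlapped. The probes of Bmp1 disagreed, with whole minus depleted differences of -0.05 and 0.96 in NP rats. The probes used for the leading genes lie, in the rn4 build of the array files, at chr16:9570485-9570544 (Gdf10), chr13:32171058-32171117 (Inhbb), chr17:57244565-57244624 (Inhba), chr1:187509799-187509858 (Tgfb1i1), chr14:3240135-3240194 (Tgfbr3), chr6:108826444-108826471 (Ltbp2), chr10:77690164-77690223 (Nog) and chr16:19313390-19313449 (Gdf15). Whether these lie in coding or noncoding exon was not analysed here.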

How the data were processed

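RNA from dispersed cervix cells of 12 rats, 3 in each of 4 groups, was hybridised to 1-colour Agilent arrays. Per the file headers, the authors deposited the scanner's intensity of each spot from Feature Extraction 9.5.3.1 (background subtracted, detrended, with no normalization between arrays, build rn4) and a table of ratios of each intensity to the 75th percentile of its array. Groups came from the labels. Control spots and outlier spots (294 to 648 an array) were left out, spots of a probe averaged, and the log2 of the array's 75th percentile subtracted. RefSeq accessions named 17328 of 30367 probes (57.06%), and the names in the files were kept for the rest. The brightest probe stood for a gene. limma 3.58.1 in R 4.3.3 (lmFit, eBayes over the genes tested, a mean per group, no covariates) was tested on simulated data and then run on all genes. Plots were made with Python and matplotlib.

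The members, lists and tests were chosen with earlier results of these data known. Values on every array were given for Tgfb1, Tgfb2, Tgfb3, Tgfbr1, Tgfbr3, Gdf5 and, for each comparison, up to 8 members with the largest difference among those called with an adjusted p below 0.05 and no overlap between groups. Alternatives were the adjusted threshold, the Welch test named in the methods (called the methods' t-test) before and after adjustment, normexp background correction (offset 50), quantile normalization, no filter on background, the mean of all probes, a block for slide or for scan day, the deposited ratios in place of the intensities, leaving out each rat and, chosen after seeing the data, moderation of the spread over all genes. With 3 arrays a group the number of arrays limits the precision. Some genes of the pathway lists were counted, but their own values are not reported here.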

Additional observations from a re-analysis of the deposited data

Results flagged for a closer look

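For 7 genes the difference between whole and Mφ-depleted cervix was itself different in D21 and in NP rats, by the interaction term of the limma fit. It was -4.52 for Gdf10 (adjusted p = 0.00174), -1.71 for Tgfb1i1 (adjusted p = 0.0330) and -3.27 for Inhba (adjusted p = 0.0404). It was -1.30 for Acvrl1 (adjusted p = 0.0829), -3.33 for Inhbb (adjusted p = 0.0990), -3.0 for Gdf5 (adjusted p = 0.114) and 1.52 for Smad4 (adjusted p = 0.105), which did not reach an adjusted p of 0.05. Gdf5 was well above background in 1 group only, NP whole cervix, so that the size of its interaction rests on values below background. Inhbb was not called with the mean of both its probes, the dimmer of which differed by 2.59 in D21 and 3.11 in NP rats.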

How the results depend on the processing

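No paired analysis was possible because each array is another rat and the groups compared share fewer than 2 rat numbers. Over all settings the called genes gave 889 values that kept direction and call, 201 that lost the call and 0 that changed sign. Many of these values could not change sign, so the counts do not measure stability. Leaving out a rat cannot turn the sign where the groups did not overlap, as held for every gene called in the differences between groups. Leaving out a rat of a group not compared, or changing only the test, threshold or filter, keeps a difference between groups as it was. A block for scan day likewise cannot move D21 against NP in whole cervix, as those arrays were scanned on the same day. With adjusted p at 0.05 in place of the call, higher and lower counts were 2 (against 4) higher for D21 against NP whole cervix, 1 (against 2) lower for depleted cervix, 5 (against 3) lower for whole against depleted D21, 5 (against 2) lower for NP, and 0 (against 1) higher and 3 (against 6) lower for the interaction. With normexp the counts were 1 higher and 2 lower (D21 against NP, whole), 1 lower (depleted), 3 higher (whole against depleted, D21) and 7 higher (NP). The methods' t-test called 0 higher and 1 lower (D21 against NP, whole), 4 and 0 (depleted), 2 and 1 (whole against depleted, D21) and 6 and 1 (NP), and after Benjamini-Hochberg 0 and 0, 0 and 0, 0 and 0, and 3 and 0. With slide as a block 1 was higher for D21 against NP whole cervix, 2 higher and 0 lower for whole against depleted D21, and 3 lower for the interaction. With scan day as a block 0 were lower for whole against depleted D21 and 0 higher for the interaction. With quantile normalization 4 were lower for whole against depleted NP and 2 higher for the interaction, where no filter gave 0 higher, as did moderation of the spread over all genes, an alternative chosen after seeing the data.

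Leaving out 1 rat, higher and lower counts ran from 2 to 4 and 2 to 5 (D21 against NP, whole), 7 to 10 and 1 to 5 (depleted), 4 to 9 and 1 to 6 (whole against depleted, D21), 11 to 13 and 2 to 4 (NP) and 0 to 6 and 3 to 7 (interaction). Signs changed only for differences that were not called. Whole minus depleted D21 values became 0.05 (quantile), 0.07 (scan day) and -0.18 to 0.14 (without 1 rat) for Acvrl1, -0.25 for Inhbb, 0.39 for Tgfb3 and -0.82 for Tgfb1 (slide), -0.09 for Tgfb1 (scan day), and -0.36 to 0.04 for Tgfbr1 (without 1 rat). In NP rats Tgfb1 became -1.08 (slide), -0.84 (scan day) and -0.33 to 0.47 (without 1 rat). For D21 against NP, without 1 rat, Acvrl1 ran from -0.21 to 0.03 and Tgfb3 from -0.05 to 0.61 in whole cervix, and Gdf15 from -0.33 to 0.81 and Tgfb1 from -0.12 to 0.78 in depleted cervix, where Gdf15 became -0.18 with normexp and -0.13 with quantile normalization. The interaction of Tgfbr3 became -0.02 with normexp. The cause was not tested. Genes not well above background have no measured level, and 3 arrays a group limit the precision.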
